A study of Mus musculus with 4 samples.

Results

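Box C/D small nucleolar RNAs (snoRNAs) were examined in naive CD4 T cells of mice that lack Btg1 and Btg2 in the T cell lineage. Their genes were taken as those whose symbol begins with Snord and whose type is snoRNA in GENCODE mouse release M21 (build GRCm38), which gave 98 of the 48858 genes that could be summed from the deposited abundances. The DKO group held 2 libraries from Btg1f/f Btg2f/f-CD4-Cre mice, whose Cre is driven by Cd4 regulatory sequences, and the WT group held 2 libraries from littermates with the same floxed alleles, labelled without Cre. The cells of both groups were sorted as TCRb+ CD4+ CD25- CD62L-high CD44-low. The submitters describe the mice as pairs, so each library was taken to come from a different mouse. All libraries were total RNA depleted of rRNA.

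A box C/D snoRNA is a short nuclear RNA held together by a C box near its 5′ end and a D box near its 3′ end. These boxes bind fibrillarin (Fbl), Nop56, Nop58 and Snu13, and a guide stretch just upstream of a D box pairs with ribosomal RNA, whose paired base fibrillarin methylates on the ribose. Most mammalian snoRNAs lie in introns of host genes and are cut out of the spliced intron, so a host's mRNA and its snoRNA come from the same primary transcript but are then degraded by separate routes. A few members, such as U8, U13, U14 and U22, take part in the cleavage or other modification of pre-rRNA. Btg1 and Btg2 are antiproliferative proteins that bring the CCR4-NOT deadenylase to mRNAs.

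The 98 genes carry 97 symbols and annotated RNAs of 64 to 238 bases, with a median of 84. Of them 42 were shorter than 80 bases, 45 had 80 to 99, 10 had 100 to below 150 and 1, Snord17, was longer. The core of the C box, searched as TGATGA on the RNA strand in the first 22 bases, stood in 70 of the 98 RNAs (71.4%), against 0 of 42 Snora RNAs, the box H/ACA class that guides pseudouridylation. The D box, CTGA in the last 16 bases, stood in 93 (94.9%), against 3 of 42 (7.14%). The following RNAs are printed because the comparison by length turns on them, with both boxes in capitals where the search found them, in DNA letters from the GENCODE M21 transcripts on GRCm38.
Snord15b, chr7:99479563-99479707, minus strand: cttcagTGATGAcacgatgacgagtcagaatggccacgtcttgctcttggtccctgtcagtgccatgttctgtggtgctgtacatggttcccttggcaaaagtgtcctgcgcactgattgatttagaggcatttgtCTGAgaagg
Snord15a, chr7:99482785-99482932, minus strand: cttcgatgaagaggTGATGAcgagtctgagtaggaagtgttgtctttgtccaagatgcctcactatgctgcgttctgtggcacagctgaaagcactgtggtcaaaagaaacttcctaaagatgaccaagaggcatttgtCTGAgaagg
Snord17, chr2:144265979-144266216, minus strand: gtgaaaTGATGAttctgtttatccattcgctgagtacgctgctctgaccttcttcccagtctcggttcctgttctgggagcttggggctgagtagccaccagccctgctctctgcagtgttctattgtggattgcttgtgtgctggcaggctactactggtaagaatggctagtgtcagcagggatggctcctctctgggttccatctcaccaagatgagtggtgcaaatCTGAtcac
Snord99, chr4:132310691-132310764, plus strand: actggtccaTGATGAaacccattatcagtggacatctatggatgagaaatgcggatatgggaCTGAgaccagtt
Snord15b and Snord15a lie in the ribosomal protein gene Rps3 and Snord17 in Snx5, which encodes a sorting nexin, and these were among the longest members. Snord99 is a short member that lies in the non-coding gene Snhg12 and had among the lowest ratios of DKO to WT.

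The targeted genes followed the labels. Btg1 had a mean of 5.92 CPM (counts scaled to a common library total, after TMM correction for composition) in DKO and 500 CPM in WT cells, and Btg2 0.309 CPM in DKO and 92.5 CPM in WT cells. The libraries held 13889894 to 17827631 estimated counts. Summed markers of CD4 T cells were 3844 and 3736 CPM in DKO and 3280 and 3996 CPM in WT cells, whereas B cell markers summed to at most 1.62 CPM. NK cell markers summed to at most 0.235 CPM, with Ncr1 and Gzmb at 0, and myeloid markers to 2.47 and 4.66 CPM in DKO and 4.81 and 3.54 CPM in WT cells. CD8 T cell markers (Cd8a and Cd8b1) summed to 8.60 and 13.2 CPM in DKO and 7.18 and 7.51 CPM in WT cells. Regulatory T cell markers (Foxp3, Il2ra and Ikzf2) summed to 19.5 and 32 CPM in DKO and 7.97 and 9.06 CPM in WT cells, and their part in the results was not tested. The mean fragment length implied by the deposited effective lengths of transcripts over 2000 bases was 133 and 142 bases in DKO and 124 and 120 bases in WT libraries. Its part in the results on short RNAs was not tested.

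The WT replicates differed strongly in snoRNA counts, and this bears on every result. Snord genes together held 27962 and 17371 counts in the DKO libraries and 30239 and 58662 in the WT libraries. As a share of counts on genes these were 0.170% (95% Wilson interval 0.168 to 0.172) and 0.0983% (0.0968 to 0.0997) in DKO, and 0.204% (0.201 to 0.206) and 0.426% (0.423 to 0.429) in WT. The intervals cover counting error only. DKO replicate 1 and WT replicate 1 were therefore close, with DKO replicate 2 below them and WT replicate 2 above them. The mean share was 0.134 ± 0.0509% in DKO and 0.315 ± 0.157% in WT cells (SD, n = 2 each), 2.35-fold lower in DKO. It was 1.52-fold lower without WT replicate 2. The exact two-sided permutation test gave p = 0.333, the smallest that 2 against 2 libraries allow. In bulk RNA, fewer cells of a type and less of an RNA per cell cannot be told apart.

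**Figure D1:**
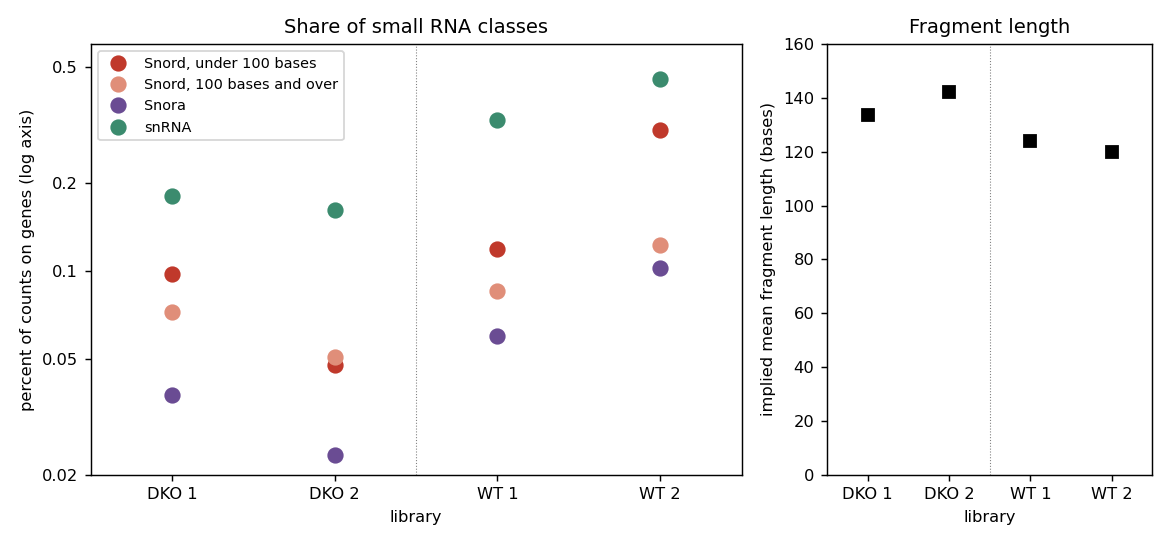
Left, percent of counts on genes taken by Snord RNAs under and over 100 bases, Snora and snRNA genes in each library (log axis), and right, the implied mean fragment length in bases, 1 point per library. Both DKO libraries lie below both WT libraries in each class, WT replicate 2 is the highest in each, and fragments are longest in DKO replicate 2.

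Counts were found for 78 of the 98 members, and 59 passed the filter on low counts and were tested. The 19 others with counts held 278 counts in sum over the 4 libraries, with at most 23 in any library. The remaining 20 were at 0 in every library. They comprise all 17 annotated copies of Snord116, the imprinted brain snoRNA cluster whose human counterpart is deleted in Prader-Willi syndrome, with Snord64, Snord107 and Snord123. For each of these a count of 0 allows up to 3 counts, or 0.170 to 0.218 CPM of the library total. The Snord116 host, Snhg14, was present at a low level, with 1.0 and 1.66 CPM in DKO and 6.03 and 3.02 CPM in WT cells. No 2 of the 59 tested members had identical counts, so each gene record was counted once, including both overlapping records of Snord80.

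Every tested Snord member was lower in DKO on average, but none passed the edgeR test. The median log2 fold change over the 59 members was −1.82, with quartiles of −2.06 and −1.20 and a range of −2.99 to −0.22, beside a median of −0.01 over all 12863 genes tested. A scarce member could pass the filter through the libraries of a single group, which bears on its direction. Snord2, named after its value was seen, gave the lowest value, from 0.294 and 0 CPM in DKO and 1.08 and 1.21 CPM in WT cells. All 59 were below 0 with TMM scaling. This was so for 58 with total counts, 54 when scaled to RNA polymerase III transcripts and 41 when scaled to snRNA genes, which were lower in DKO themselves. Log2 fold changes of −1 or lower were found for 52 members, against 5.38% of all genes tested. With the quasi-likelihood test of edgeR and Benjamini-Hochberg adjustment over all genes, 0 members were called lower, against 0.07% of all genes, and 0 higher, against 0.0544%. Their adjusted p-values ran from 0.139 to 0.983. At an unadjusted p below 0.05, 13 were lower, against 4.35% of all genes, and 0 higher, against 3.82%. DESeq2 called 7 members lower, against 1.03% of all genes, and 0 higher, against 0.428%. These were Snord15a, Snord15b, Snord89, Snord49a, Snord8, Snord110 and Snord16a.

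**Figure D2:**
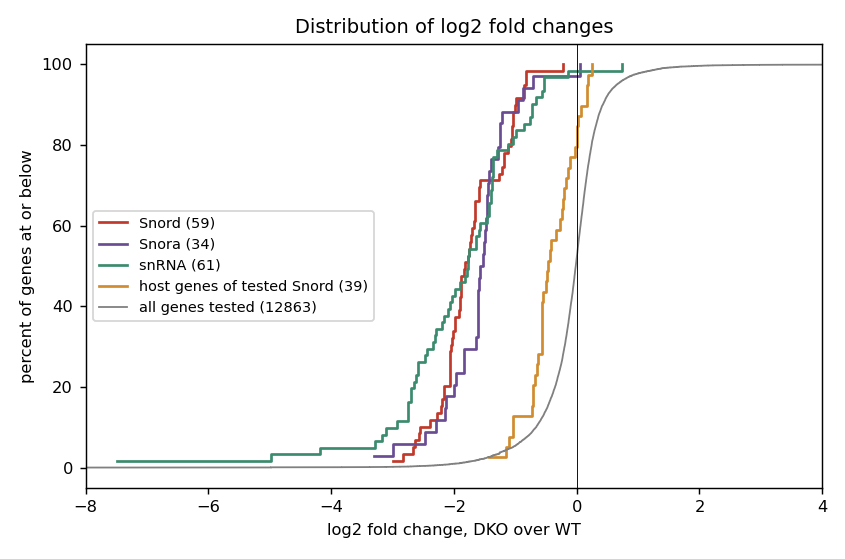
Cumulative percent of genes (y axis) at or below each log2 fold change of DKO over WT (x axis, edgeR with TMM scaling, ends of the axis cut) for tested Snord, Snora and snRNA genes, the host genes of Snord RNAs and all genes. The Snord curve lies left of 0 throughout with a median of −1.82, the host genes have a median of −0.47 and all genes −0.01.

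Both DKO libraries lay below both WT libraries for 44 of the 59 members, or 74.6%, against 18.8% of all genes tested, and both above for 0, against 19.8%. Both lay below for 76.5% of 34 tested Snora genes and 80.3% of 61 tested snRNA genes as well. WT replicate 2 was the highest library for 57 members, against 3600 of all 12863 genes tested. DKO replicate 2 was the lowest for 56 members, against 2848 of all genes tested. These counts were 32 and 31 for the 34 Snora genes, and 54 and 43 for the 61 snRNA genes. The full order, from low to high, was DKO replicate 2, DKO replicate 1, WT replicate 1 and WT replicate 2. It was shown by 42 members (71.2%), against 6.55% of all genes, 64.7% of 34 Snora genes and 60.7% of 61 snRNA genes. This order, noticed in these data, is also that of the implied fragment lengths from long to short. The median difference on the log2 CPM scale between DKO replicate 1 and WT replicate 1 was −0.33, and that between DKO replicate 2 and WT replicate 2 was −2.73. Within groups it was −1.09 for DKO replicate 2 minus replicate 1 and 1.39 for WT replicate 2 minus replicate 1. The WT replicates thus differed from each other by more than the replicates numbered 1 of the groups did. Without WT replicate 2 the median over members was −0.88, and 51 of 59 were below 0. Without DKO replicate 2 it was −1.32, and 58 of 59 were below 0.

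Among individual members, Snord15b had by far the highest CPM, also per base of annotated length. Effective lengths of short RNAs were far below the annotated ones, and this ranking does not correct for them. Snord15b had 402 and 226 CPM in DKO and 536 and 720 CPM in WT cells, from 6824 and 4901 counts in DKO and 7467 and 8336 in WT libraries. The groups did not overlap, and its log2 fold change was −1.0 ± 0.30 (SE; adjusted p = 0.416, edgeR). Human SNORD15 RNAs guide methylation of 28S rRNA. Its relative Snord15a, in another intron of the same gene, had 51.9 and 36.9 CPM in DKO and 80.2 and 106 CPM in WT cells. Its log2 fold change was −1.07 ± 0.20 (SE), the smallest error of the members named here, with the lowest adjusted p of all members, 0.139 by edgeR.

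The next most abundant members had a wider spread within WT. Snord87, from the non-coding host Snhg6, had 100.02 and 46.1 CPM in DKO and 136 and 404 CPM in WT cells. The groups did not overlap, but the WT replicates were further apart than WT replicate 1 and either DKO library, and the log2 fold change was −1.89 ± 0.85 (SE; adjusted p = 0.715 by edgeR). Snord21, from Rpl5, had 91.3 and 40.3 CPM in DKO and 135 and 382 CPM in WT cells, with a log2 fold change of −1.97. Snord99 had 52.8 and 12.8 CPM in DKO and 84.0 and 305 CPM in WT cells, and its log2 fold change was −2.57 ± 1.26 (SE; adjusted p = 0.747 by edgeR). Without WT replicate 2 it was −1.35. The same library order was seen in Snord57 from Nop56, with 57.8 and 15.5 CPM in DKO and 81.7 and 219 CPM in WT cells, and in Snord100 from Rps12, with 47.2 and 17.2 CPM in DKO and 71.9 and 190 CPM in WT cells. The log2 fold change was −2.04 for Snord57 and −2.02 for Snord100. The 12 most abundant members included 2 in which DKO replicate 1 was nearly level with WT replicate 1. Snord22 had 122 and 67.5 CPM in DKO and 132 and 323 CPM in WT cells, and Snord17 had 74.0 and 52.1 CPM in DKO and 79.0 and 180 CPM in WT cells.

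**Figure D3:**
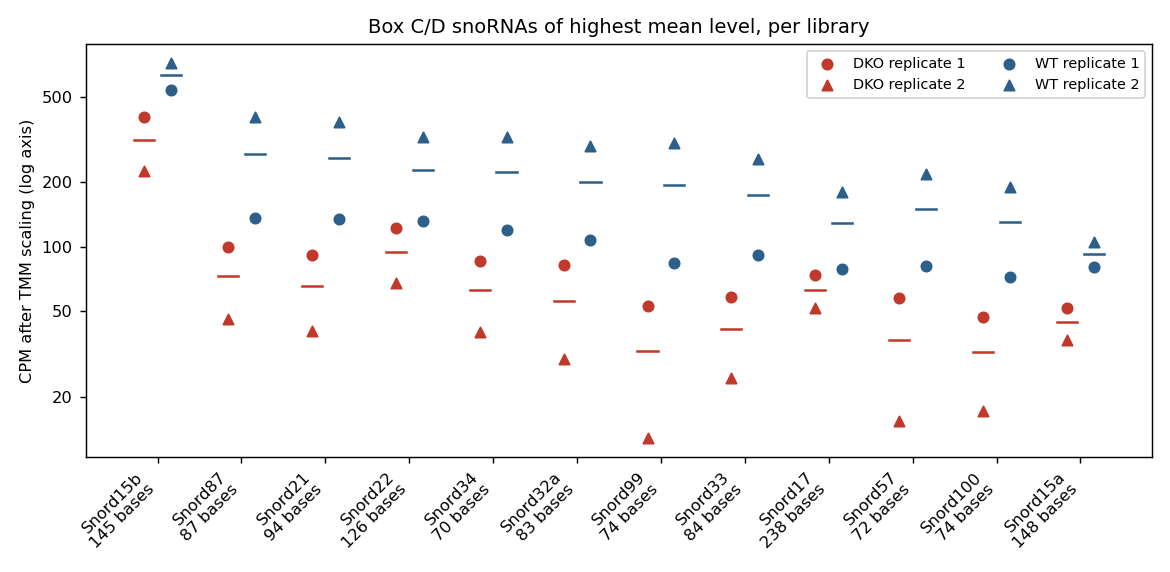
CPM after TMM scaling (log axis) of the 12 Snord members of highest mean level in each library, with DKO left of WT for each member, points for replicates and bars for group means. The DKO points lie below the WT points for each of the 12, from 226 to 720 CPM for Snord15b down to 36.9 to 106 CPM for Snord15a, and WT replicate 2 is the highest point for each.

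Snord89 was among the members that did not show the full order of the libraries. It had 16.6 and 9.10 CPM in DKO and 47.0 and 36.1 CPM in WT cells, so that WT replicate 1 was the higher of the WT libraries. Its log2 fold change was −1.70 ± 0.31 (SE; adjusted p = 0.199, edgeR), and it was −1.87 without WT replicate 2. It was chosen for mention after its values were seen, as a member called by DESeq2. Its annotated host, the non-coding gene Gm15832, was near the floor, with 0.530 and 0.554 CPM in DKO and 0.718 and 0.173 CPM in WT cells.

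The lowest log2 fold changes among members of at least 5 CPM on average, beside that of Snord99, were −2.83 ± 1.36 for the shorter Snord80 record, −2.55 ± 1.39 for Snord85, −2.40 ± 1.18 for Snord68 and −2.21 ± 0.89 for Snord70 (SE). Snord85 had 4.0 and 0.646 CPM in DKO and 4.88 and 21.8 CPM in WT cells, so that 3 of the 4 libraries were below 5 CPM and WT replicate 2 stood apart. GENCODE lists Snord80 under 2 gene records, and both are printed because one is contained in the other and reads of either cannot be assigned with confidence.
Snord80 short record, chr1:161037604-161037680, plus strand: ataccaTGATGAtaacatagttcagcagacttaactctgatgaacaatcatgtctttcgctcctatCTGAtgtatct
Snord80 long record, chr1:161037601-161037681, plus strand: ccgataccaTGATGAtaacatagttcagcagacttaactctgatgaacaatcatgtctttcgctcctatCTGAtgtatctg
The shorter record had 5.77 and 0.646 CPM in DKO and 10.8 and 33.4 CPM in WT cells. The longer one had 3.30 and 2.63 CPM in DKO and 5.31 and 14.2 CPM in WT cells, a log2 fold change of −1.72. Both are in Gas5, a non-coding host gene, and the division of reads between them is the authors' estimate. The highest log2 fold changes among members of at least 5 CPM were those of Snord13 (−0.86), Snord82 (−0.98), Snord15b (−1.0), Snord17 (−1.04) and Snord14d (−1.05). For Snord82, in the nucleolin gene Ncl, the values were 48.0 and 30.1 CPM in DKO and 53.3 and 101 CPM in WT cells.

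By group means, longer snoRNAs were lower in DKO by less than shorter ones, but not between the replicates numbered 1. By annotated length the median log2 fold change was −1.96 under 80 bases (28 members), −1.88 at 80 to 99 (22 members) and −1.09 at 100 to below 150 (8 members), and Snord17 was at −1.04. It was −1.90 for the 50 members under 100 bases and −1.07 for the 9 of 100 bases and over. On the log2 CPM scale, DKO replicate 1 minus WT replicate 1 had medians of −0.33 under 100 bases and −0.42 for the longer ones. DKO replicate 2 minus WT replicate 2 had medians of −2.88 and −1.78. Spearman's correlation of length and log2 fold change across the 59 members was 0.35. It was 0.16 across the 50 members under 100 bases, so that the pattern rests mainly on the longer ones. Genes are not independent replicates, all members share the same 4 libraries, and the correlation is a description only.

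**Figure D4:**
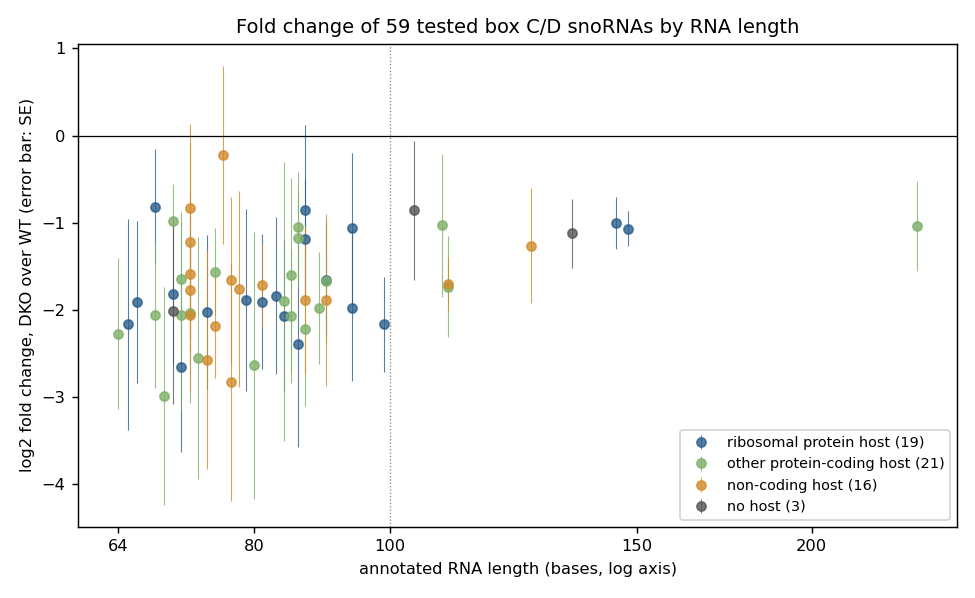
Log2 fold change of DKO over WT with its SE (y axis) against annotated RNA length in bases (log x axis) for the 59 tested members, coloured by class of host gene. Members of 100 bases and over, right of the dotted line, lie between −1.73 and −0.86, and shorter ones between −2.99 and −0.22.

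Summed counts showed the same split between the group means, but hardly between the replicates numbered 1. Members under 100 bases held 16049 and 8380 counts in DKO and 17610 and 41803 in WT libraries, and those of 100 bases and over held 11914 and 8991 in DKO and 12630 and 16859 in WT libraries. As mean shares of counts, the shorter ones were 2.91-fold and the longer ones 1.68-fold lower in DKO. The log2 ratio of longer to shorter members was −0.43 and 0.10 in DKO and −0.48 and −1.31 in WT libraries. The ratio was higher in DKO by 0.73 on the log2 scale, with a pooled SD of 0.49 and no overlap between the groups (exact two-sided permutation p = 0.333, the smallest possible). DKO replicate 1 and WT replicate 1 were within 0.05 of each other in this ratio. Without Snord15b, the most abundant of the longer members, the ratio was −1.66 and −1.03 in DKO and −1.77 and −2.29 in WT libraries. Without WT replicate 2, the median log2 fold change was −0.93 for members under 100 bases and −0.66 for those of 100 bases and over. With the authors' effective lengths as an offset the medians were −1.75 and −0.88.

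Snora RNAs, which are mostly longer, were not at the level of the longer Snord RNAs. The 29 tested Snora genes of 100 to below 150 bases had a median of −1.57, against −1.09 for the 8 Snord members in that range. The log2 ratio of Snord members of 100 bases and over to Snora counts was 0.95 and 1.12 in DKO and 0.51 and 0.26 in WT libraries, a difference of 0.65 with a pooled SD of 0.15 and no overlap (exact two-sided permutation p = 0.333). For Snord members under 100 bases the ratio to Snora counts was 1.38 and 1.01 in DKO and 0.99 and 1.57 in WT libraries, and the groups overlapped. All Snord against snRNA counts also overlapped, at −0.09 and −0.72 in DKO and −0.70 and −0.10 in WT libraries. No difference of Snord from snRNA was therefore detectable, the difference being −0.01 with a pooled SD of 0.44. The median log2 fold change was −1.77 over 61 tested snRNA genes and −1.55 over 34 tested Snora genes. Without WT replicate 2 the medians were −1.11 for snRNA, −0.81 for Snora and −0.66 for Snord genes of 100 bases and over.

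Host genes were lower in DKO by much less than the snoRNAs inside them. Of the 98 members, 21 lie in ribosomal protein genes, 35 in other protein-coding genes, 39 in non-coding genes and 3 in none (Snord13, Snord104 and Snord118). For 54 members the RNA lies in an intron of every host transcript, and for 41 it overlaps an exon of some host transcript. Where a host transcript holds the RNA, estimated counts divide its reads between host and snoRNA. Their values are then not separate measurements. Of the 59 tested members 55 lay in 39 hosts that were tested as well, and 4 had no tested host. The median log2 fold change of the hosts was −0.47, with a range of −1.43 to 0.25. The median of a host's snoRNAs was below the host in each of the 39, by a median of 1.41 on the log2 scale, and 54 of 55 single members were below their host. Snord65, named after its value was seen, was the exception, with −0.83 against −1.03 for its host 2410006H16Rik. Without WT replicate 2 the median difference was −0.45 and 31 of the 39 hosts kept that direction.

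**Figure D5:**
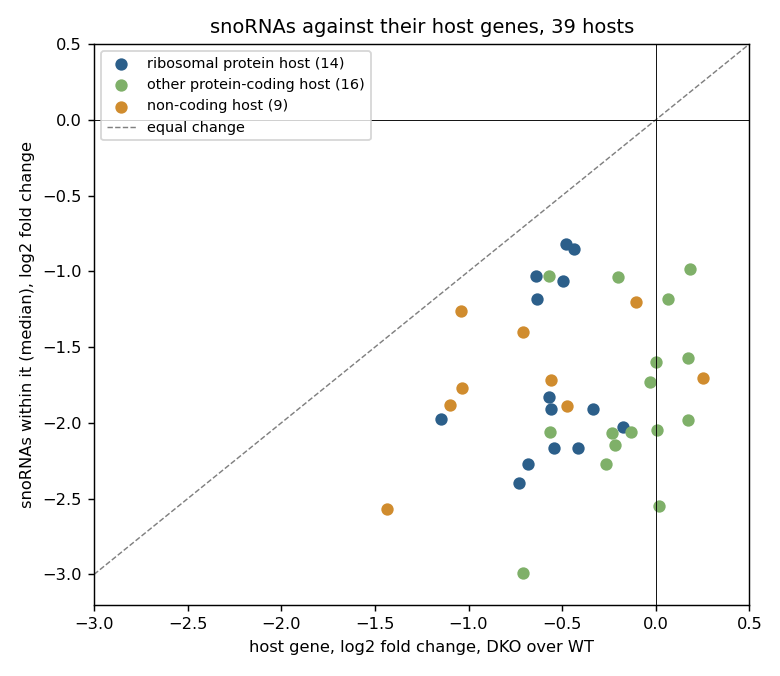
Median log2 fold change of the tested snoRNAs in a host gene (y axis) against that of the host gene (x axis), both DKO over WT, for 39 hosts coloured by class, with a dashed line of equal change. All points lie below the line, with hosts from −1.43 to 0.25.

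The hosts themselves differed by class. The 14 ribosomal protein hosts had a median of −0.55, the 9 non-coding hosts −0.71 and the 16 other protein-coding hosts −0.08. None of the 39 was called by edgeR, against 0.07% of all genes lower and 0.0544% higher, while 17 were lower and 0 higher at an unadjusted p below 0.05, against 4.35% and 3.82% of all genes. The snoRNAs did not divide in the same way, with medians of −1.89 for the 19 in ribosomal protein genes, −1.90 for the 21 in other protein-coding genes and −1.74 for the 16 in non-coding genes. Within the members under 100 bases these medians were −1.91, −2.01 and −1.76. Many ribosomal protein and Snhg transcripts begin with a terminal oligopyrimidine tract that ties their translation to growth signals.

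Clusters of snoRNAs in a single host showed the contrast directly. Rpl13a carries Snord32a, Snord33, Snord34 and Snord35a, which are known in rodent cells as mediators of lipid and oxidative stress. Rpl13a had 1256 and 1002 CPM in DKO and 1386 and 1965 CPM in WT cells, a log2 fold change of −0.57. Its 4 snoRNAs summed to 254 and 106 CPM in DKO and 362 and 954 CPM in WT cells, with log2 fold changes from −2.06 to −1.66. The most abundant of them, Snord34, had 85.8 and 39.9 CPM in DKO and 119 and 325 CPM in WT cells. Both the host and the snoRNAs were lowest in DKO replicate 2 and highest in WT replicate 2. Gas5 had 64.6 and 57.7 CPM in DKO and 80.5 and 100.05 CPM in WT cells. Its 3 tested snoRNA records, with both Snord80 records among them, had log2 fold changes from −2.83 to −1.66. The non-coding host 2410006H16Rik had 11.1 and 9.0 CPM in DKO and 16.4 and 24.7 CPM in WT cells, a log2 fold change of −1.03, and its Snord49a, Snord49b and Snord65 lay between −2.06 and −0.83.

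Hosts with a level close to that of WT were found too. Hspa8, the constitutive heat shock cognate chaperone, had 1009 and 764 CPM in DKO and 757 and 935 CPM in WT cells, a log2 fold change of 0.07 with overlapping groups. Its 3 copies of Snord14 summed to 36.3 and 16.2 CPM in DKO and 38.5 and 79.4 CPM in WT cells. Nop56, itself a box C/D core protein, had 60.4 and 46.1 CPM in DKO and 50.8 and 55.1 CPM in WT cells, a log2 fold change of 0.01, while its Snord57 and Snord110 were at −2.04 and −2.06. Nop58 was at −0.13 and its Snord70 and Snord11 at −2.21 and −1.90. The smallest gap was in Snhg1, a non-coding host at −1.04, whose Snord22 was at −1.26.

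Members known for pre-rRNA processing did not have the largest changes. Snord118, the U8 RNA needed in Xenopus for 5.8S and 28S rRNA, had 1.94 and 2.63 CPM in DKO and 3.66 and 6.39 CPM in WT cells. The groups did not overlap, and the log2 fold change was −1.12 ± 0.40 (SE; adjusted p = 0.494 by edgeR). Snord13, the U13 RNA that guides an acetylation of human 18S rRNA, had 20.3 and 15.9 CPM in DKO and 14.4 and 51.4 CPM in WT cells. Its groups overlapped, and without WT replicate 2 its log2 fold change was 0.35. Both are transcribed from their own genes, and their log2 fold changes were above the median of all members. So was that of Snord22, the U22 RNA needed in Xenopus for 18S rRNA, at −1.26 ± 0.66 (SE). Snord118, Snord13 and Snord22 all have 100 to below 150 bases, and the median of the 8 tested members in that range was −1.09. The part of length in their values was not tested. The third member without a host, Snord104, named here for that reason, had 27.8 and 7.53 CPM in DKO and 35.0 and 107 CPM in WT cells, a log2 fold change of −2.01.

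Snord14, the U14 RNA whose yeast counterpart is needed for 18S rRNA production, was present as 4 tested copies. Snord14c and Snord14d are printed because they differ at only 2 bases, so that their reads are hard to divide.
Snord14c, chr9:40803583-40803668, plus strand: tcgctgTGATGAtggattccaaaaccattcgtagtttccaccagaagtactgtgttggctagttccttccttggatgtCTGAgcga
Snord14d, chr9:40803995-40804080, plus strand: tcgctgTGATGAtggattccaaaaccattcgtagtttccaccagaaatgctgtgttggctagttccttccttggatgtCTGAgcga
Snord14d had 17.7 and 8.59 CPM in DKO and 16.7 and 37.6 CPM in WT cells, with overlapping groups and a log2 fold change of −1.05. Snord14c had 14.5 and 6.56 CPM in DKO and 16.4 and 31.2 CPM in WT cells, a log2 fold change of −1.18. Snord14e was at −1.67 and Snord14a, in Rps13 and under 1 CPM in every library, at −0.85.

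Members with a guide element for 18S rRNA had nearly the same median as the others. A run of at least 10 bases complementary to the 18S sequence and ending 0 to 2 bases before a CTGA was found in 21 of the 98 members, of which 14 were tested. Their median log2 fold change was −1.79, and that of the 45 other tested members was −1.82. The 18S sequence was the reverse complement of the annotated rRNA transcript of 1849 bases, and positions are counted from its first base. As an example of such an element, Snord57 is printed with the 16 complementary bases in capitals.
Snord57, chr2:130278016-130278087, plus strand: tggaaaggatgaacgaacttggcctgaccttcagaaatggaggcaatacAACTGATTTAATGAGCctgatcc
These bases pair with 18S bases 95 to 110, which read gctcattaaatcagtt, and the fifth base from the box faces base 99. The elements of the 4 Snord14 copies face base 469, those of Snord42a and Snord42b base 116, and that of Snord45c base 159. A match of letters is a description and not a measured modification, and 28S rRNA was not searched.

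Genes that encode snoRNA proteins had medians near 0. None of the 4 box C/D core proteins was called by edgeR, against 0.07% of all genes lower and 0.0544% higher, and their median log2 fold change was −0.09. Fbl averaged 32.9 CPM in DKO and 35.9 CPM in WT cells, and Snu13 26.6 CPM in DKO and 27.7 CPM in WT cells. Of 11 assembly and transport factors, 0 were called, with a median of 0.00. The assembly factor gene Pih1d1 had the lowest value, −0.59, and the assembly factor gene Znhit6 the highest, 0.36. Of 8 factors of intron debranching, trimming and decay, 0 were called, with a median of 0.06. Dbr1, the lariat debranching enzyme, averaged 11.7 CPM in DKO and 7.85 CPM in WT cells, 0.57 higher on the log2 scale (adjusted p = 0.606, edgeR). The 6 box H/ACA core genes also gave 0 calls and a median of 0.03. At an unadjusted p below 0.05, Dbr1 and Naf1 were higher and no gene of these lists was lower, against 3.82% of all genes higher and 4.35% lower.

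Sequences shared with other genes touched many members. The annotated RNA of 27 of the 59 tested members is contained in a transcript of another gene, which can be the host. Estimated counts divide such reads. The median log2 fold change was −1.76 for these 27 and −1.83 for the 32 contained in no other gene. Both DKO libraries were below both WT libraries for 20 (74.1%) and 24 (75%) of them, against 18.8% of all genes tested. The 42 members of at least 5 CPM on average had a median of −1.83 and the 17 others −1.65. For short RNAs the deposited effective length was far below the annotated one, at 14.0 and 13.4 bases in DKO and 13.93 and 14.8 bases in WT libraries for the 74 bases of Snord99, so TPM of these RNAs rests on a strong correction. On the scale of log2(TPM + 0.5), limma gave a median of −1.21 and 0 calls among the 59 members.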

How the data were processed

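RNA of sorted naive CD4 T cells was sequenced in 2 DKO and 2 WT libraries after rRNA depletion, with a stranded kit for low input per the labels' protocols. Abundances were estimated by the authors with kallisto against mm10/GRCm38, per the submitters' processing notes. The release of the annotation, the strand setting and the program version were not given in the sources used here, so reads of genes that overlap on opposite strands cannot be told apart. The deposited files hold estimated counts per transcript, not scaled, TPM, which the authors corrected for effective length and depth, and effective lengths, per the file headers. Total estimated counts were 16567226 and 17827631 in DKO and 14970076 and 13889894 in WT libraries. Of 126782 transcripts, 125182 (98.7%) were joined without version to GENCODE M21, and those without a gene held 0.822 to 0.852% of the counts.

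Counts were summed to genes, rounded and tested with edgeR 4.0.16 in R 4.3.3 (filterByExpr, TMM, robust quasi-likelihood F test on genotype, Benjamini-Hochberg adjustment at 0.05 over 12863 genes). CPM are after TMM scaling, and fold changes are DKO over WT. DESeq2 1.42.0, limma 3.58.1 and other scalings were alternatives. Only the edgeR fit on genotype was tested on simulated data, and the simulation held no shift between replicates. A host is a gene on the same strand whose span contains the member. The members, lists and host comparison were chosen with earlier results of these data known. Members named are the 12 of highest mean CPM, those of pre-rRNA processing, the 5 lowest and 5 highest fold changes at 5 CPM or more, the hosts that hold most of them, and exceptions said to be chosen after their values were seen.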

Additional observations from a re-analysis of the deposited data

How the results depend on the processing

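All alternatives listed were run. The median log2 fold change of the Snord members was −0.86 when scaled to RNA polymerase III transcripts, −0.26 when scaled to snRNA genes, −1.49 with total counts and −1.21 with TPM. The median of all genes moved to 0.90, 1.48, 0.33 and 0.13 in these settings, and relative to it the Snord median was −1.76, −1.75, −1.81 and −1.34. Leaving out each library in turn gave −2.58 to −0.88. The share of counts was 2.35-fold lower in DKO, 2.62-fold of the counts outside rRNA, mitochondrial and a few other genes, 2.85-fold of nuclear protein-coding counts, 2.34-fold as a share of TPM and 2.40-fold for members contained in no other gene. It was 1.52 to 3.20-fold lower when each library was left out. Against RNA polymerase III transcripts it was 1.51-fold lower with overlapping groups.

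Members called, which were 0 of 59, were 2 with total counts, 2 in the RNA polymerase III and 2 in the snRNA scaling. They were 7 by DESeq2 and 14 of 78 without a filter on low counts, and each was lower in DKO. All genes called, which were 16, were 260 with total counts, 494 in the RNA polymerase III scaling, 8876 in the snRNA scaling, 188 by DESeq2, 395 without the filter, 8 with effective length offsets, 5 by limma on TPM and 40 to 165 with each library left out. The labels do not say what a replicate number marks, and deviations of same-numbered libraries correlated at −0.35. The replicate block gave 142 genes and 2 members, Snord89 and Snord15a. Crossing the replicate numbers as a block, added after seeing the data, gave 520 genes and 42 members.

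Scaled to snRNA genes, the sign of the log2 fold change turned for Snord15b (0.49), Snord22 (0.31), Snord17 (0.55), Snord15a (0.44), Snord13 (0.79), Snord14d (0.50), Snord14c (0.34), Snord118 (0.48), Snord14a (0.59) and Snord82 (0.57). Scaled to RNA polymerase III transcripts it turned for Snord13 (0.20) and Snord14a (0.0068). Snord13 ran from −1.51 to 0.35 with each library left out. The cause was not tested. With 2 libraries a group, and WT replicates whose median difference over the members was 1.39 on the log2 scale, the number of libraries limits what can be said of single members.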

Other observations

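Of 1367 snoRNA genes with neither a Snord nor a Snora symbol, 99 were tested, with a median log2 fold change of −1.60. Of these genes 239 carry both TGATGA in the first 22 and CTGA in the last 16 bases, and 30 of the 239 were tested. Their median was −1.99, 29 of the 30 were below 0, and both DKO libraries lay below both WT libraries for 19 (63.3%, against 18.8% of all genes tested). The most abundant was Gm22357, an unnamed snoRNA gene of 83 bases, with 236 and 123 CPM in DKO and 318 and 644 CPM in WT cells and a log2 fold change of −1.42. Rnu3a, a copy of the U3 RNA that initiates pre-rRNA cleavage, had 108 and 70.2 CPM in DKO and 142 and 253 CPM in WT cells, a log2 fold change of −1.15. The 4 Rnu3b copies had identical counts, 65.2 and 39.4 CPM each in DKO and 92.2 and 170 CPM each in WT cells. Scarna10, an RNA of the Cajal body class, had 94.8 and 72.0 CPM in DKO and 135 and 199 CPM in WT cells, a log2 fold change of −1.0.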
